A study of Gallus gallus with 12 samples.

Results

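The nuclear genes of the mitochondrial respiratory chain and ATP synthase were followed across the 4 tissue compartments of the dorsal mesentery of the chicken embryo. Every chicken probe set was taken whose single gene symbol on the array platform begins with NDUF, UQCR, COX4 to COX8 or ATP5, or is one of the SDH subunit symbols, and each gene was represented by its probe set with the highest mean signal over the 12 arrays. This gave 133 probe sets for 74 genes, out of 13008 genes with a single symbol. Of the 74, 39 had 1 probe set and 35 had several. The tissue came from Leghorn embryos of Hamburger-Hamilton stage 21, about day 3.5 of incubation, with no treatment or genetic change stated. The 4 compartments were left epithelium, right epithelium, left mesenchyme and right mesenchyme, cut by laser from 8 µm frozen sections, with 3 arrays each (n = 3 biological experiments, each giving all 4 compartments). The material of an experiment was pooled for each compartment, the number of embryos in it is not stated in the sources, and the RNA was amplified before labelling.

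The dorsal mesentery suspends the gut tube from the body wall, and its left and right sides become different in shape and matrix shortly before the gut tilts. The respiratory chain is the set of protein complexes in the inner mitochondrial membrane that passes electrons from NADH and succinate to oxygen and pumps protons, and ATP synthase uses the proton gradient to make ATP. Complex I takes electrons from NADH, complex II from succinate, complex III passes them to cytochrome c and complex IV on to oxygen, and ATP synthase is called complex V. Most subunits are encoded in the nucleus, and a small number, the catalytic core of complex IV among them, in mitochondrial DNA, whose genes were not analysed here.

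By role, the 74 genes included 6 core subunits of complex I, 27 accessory subunits of complex I and 8 assembly factors of complex I. The others were 2 subunits of complex II, 8 of complex III, 9 of complex IV and 14 genes counted with complex V. ATP5S was among these 14, and whether its protein is a structural subunit was not examined. NDUFA4 and COX7A2L were counted with complex IV, since the protein of NDUFA4, named after complex I, is a subunit of complex IV in mammals and that of COX7A2L helps join complexes III and IV. SDHB, SDHC, COX4I2, COX6A2, COX7A1, COX7A2, NDUFA4L2 and the W chromosome copy of the alpha subunit of ATP synthase were not analysed here. Of the 74 probe sets, 18 carry the platform's suffix for probes that match several transcripts, and 21 that for transcripts of the same gene. How far related copies shared signal was not tested.

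On all 12 arrays the values were MAS5 signals, scaled by the authors to a common trimmed mean of 500.1. The detection floor, set on each array at the 95th percentile of 23 controls that match no chicken transcript, lay between 15.5 and 28.5 signal units. Of 11 coelomic epithelium markers tested, 7 were higher in epithelium than in mesenchyme (1105 of 23063 probe sets, 4.79%, passed in this comparison), among them PODXL by 1.67 log2, and 13 of 18 endothelial markers were lower in epithelium. Of 17 mesenchyme markers tested, only 5 passed as lower in epithelium and none as higher. Their mean summed signal was 61146 in left and 76746 in right epithelium, against 72801 in left and 85300 in right mesenchyme. Signals of other cell types were unequal between the compartments. The summed signal of 6 blood markers, mostly globins, was 63625, 23956 and 19313 in left epithelium against 72041, 71925 and 68186 in right epithelium, and 5 of the 6 passed as lower on the left. The summed signal of the endothelial markers was 13859, 13085 and 14351 in left mesenchyme against 6457, 6587 and 5748 in right mesenchyme, and 5 passed as higher on the left. Of all tested probe sets, 2.47% passed between left and right epithelium and 1.99% between left and right mesenchyme. The 3 prime minus 5 prime signal of the GAPDH control, a gauge of RNA integrity, was 1.23 to 1.58 log2 on the 6 left arrays against 0.95 to 1.30 on the 6 right ones. For the actin control it was 1.27 to 1.88 against 1.05 to 1.74, and for EF1A 0.45 to 0.59 against 0.34 to 0.62. The part of RNA integrity in the results was not tested. In such tissue pieces a lower share of a cell type and less RNA per cell cannot be told apart.

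The respiratory chain genes were bright and varied little. Their mean signals over the 12 arrays had a median of 3293 over the 74, against 313 over the 13008 genes with a single symbol, each by its own brightest probe set, and 52 of the 72 tested genes had a mean signal of at least 1000. The probe sets with the highest mean signals were those of COX6C (22888), COX7C (21539), ATP5I (21204), UQCR10 (18553) and UQCRHL (17801). Those of COX7B (10.8), ATP5G2 (28.9), NDUFAF3 (66.5), NDUFS5 (94.4) and NDUFAF8 (126) had the lowest. Probe sets bind with unequal strength, so these signals do not rank the genes by RNA amount.

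From the lowest to the highest of the 12 arrays, the signal of a tested member differed by a median of 1.42-fold, with a range of 1.18-fold for ATP5F1AZ to 13.2-fold for NDUFAF3. The median was 2.48-fold over all tested probe sets and 1.62-fold over those with a mean signal of at least 1000. Here and below, these backgrounds include further probe sets of a gene and probe sets without a symbol, whereas each member is its gene's brightest probe set. Between the highest and the lowest compartment mean, the members differed by a median of 1.12-fold, 69 of 72 by less than 1.5-fold and 1, NDUFAF3, by more than 2-fold. The compartment with the highest mean was left epithelium for 30 of the 72 genes, right epithelium for 16, left mesenchyme for 13 and right mesenchyme for 13. The same counts and ratios of compartment means were not computed over all tested probe sets, so these have no background to be read against. The spread between the 3 arrays of a compartment was likewise small, with a median SD of 0.140 log2 for the members, 0.152 for the probe sets with a mean signal of at least 1000 and 0.269 for all tested probe sets.

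**Figure D1:**
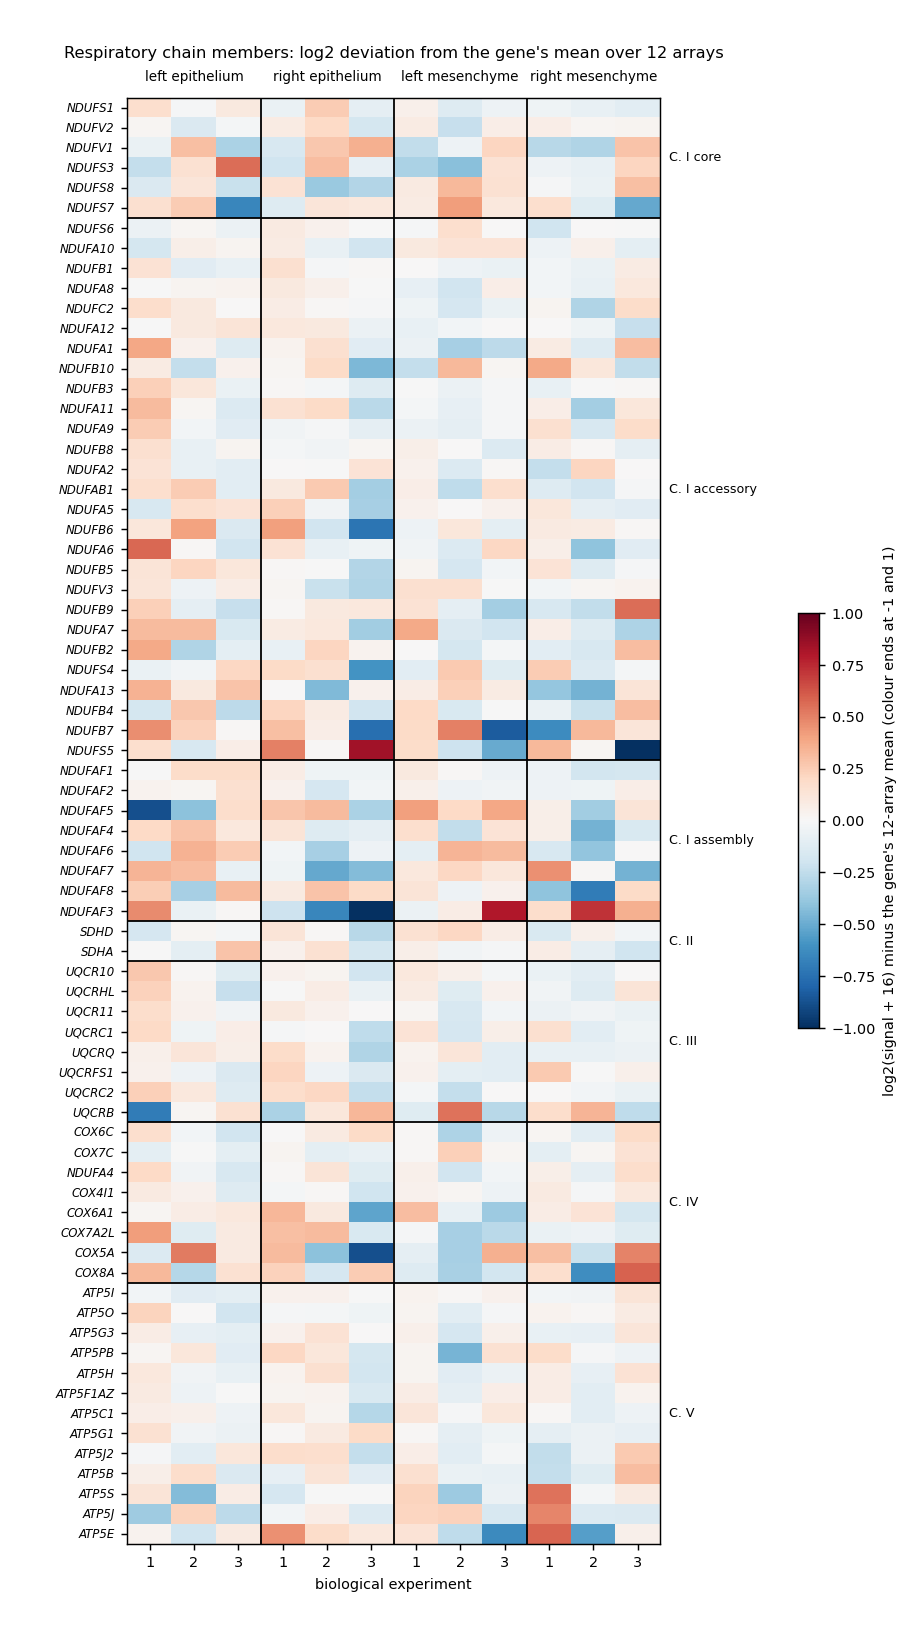
Deviation of each tested respiratory chain gene (rows, by complex) from its own mean over the 12 arrays (columns, by compartment and experiment), on the log2(signal + 16) scale, with colours ending at -1 and 1. Most of the field is pale, and the strong colours stand in dim genes such as NDUFAF3, NDUFS5, NDUFB7 and COX5A and often on a single array.

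To test the differences, 16 was added to each signal, log2 was taken, and limma fitted the 23063 probe sets above a mean signal of 47.4 in a linear model with compartment and experiment. A difference is left minus right or epithelium minus mesenchyme on this scale, so that the change of dim genes is understated, and it is followed by its SE. It passed where the p adjusted by Benjamini-Hochberg over all 23063 was under 0.05. Of the 74 genes, 72 were tested. COX7B, a complex IV subunit, was above the floor on 2 arrays and ATP5G2, a gene of the ATP synthase c ring, on 6, and neither was bright enough to be tested.

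None of the 72 genes passed in any comparison by limma. Between left and right mesenchyme, 0 of 72 passed, where 1.99% of all probe sets did, and 1 gene had an unadjusted p under 0.05. Between left and right epithelium, 0 of 72 passed against 2.47% of all probe sets, and 2 had an unadjusted p under 0.05. For left against right over both layers it was 0 of 72 against 5.28%, with 1 gene under 0.05 unadjusted, and for epithelium against mesenchyme 0 of 72 against 4.79%, with 2. For the interaction, the left-right difference in epithelium minus that in mesenchyme, it was 0 of 72 against 0.026%, with 1. The background shares correspond to 1.44, 1.78, 3.80, 3.45 and 0.02 of 72 probe sets in these 5 comparisons. Of the 6101 probe sets with a mean signal of at least 1000, the range that holds 52 of the 72 genes, 4.05%, 4.8%, 9.49%, 7.54% and 0.0656% passed in the same 5 comparisons. Over all tested probe sets, the share with an unadjusted p under 0.05 was 12.3%, 12.8%, 16.8%, 16.7% and 5.84% in that order. The 3 left and 3 right arrays did not overlap for 4 of the 72 genes in mesenchyme, against 17.7% of all tested probe sets, and for 5 of 72 in epithelium, against 15.7%.

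The estimates themselves were small. The median difference of the members was 0.00 log2 between left and right mesenchyme, 0.04 between left and right epithelium, 0.02 over both layers and 0.03 between epithelium and mesenchyme, against 0.00, 0.01, 0.01 and -0.01 over all tested probe sets. The median size of a member's difference, whatever its sign, was 0.08, 0.09, 0.07 and 0.07 log2 in the same comparisons. Over all tested probe sets it was 0.21, 0.22, 0.17 and 0.17, and over the 6101 with a mean signal of at least 1000 it was 0.14, 0.13, 0.11 and 0.11.

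The intervals say how large a difference the data still allow. Between left and right mesenchyme, the 95% interval of 55 of the 72 genes lay within a 1.5-fold change in either direction, and that of 70 within a 2-fold change. Between left and right epithelium these counts were 52 and 67, over both layers 63 and 71, and between epithelium and mesenchyme 62 and 70. For the 52 genes with a mean signal of at least 1000, all intervals lay within 2-fold in these comparisons, and all within 1.5-fold too except 2 of 52 between left and right epithelium. Of all tested probe sets, 25.8%, 25.3%, 45.6% and 45.7% lay within 1.5-fold in the same order, and 64.7%, 63.7%, 85.5% and 85.7% within 2-fold. Of those with a mean signal of at least 1000, 73.2%, 72.9%, 88.1% and 88.7% lay within 1.5-fold. Within 2-fold it was 96.1%, 95.8%, 97.9% and 98.3%, so intervals inside 2-fold were common to nearly all bright probe sets. Most of the wide intervals were those of dim genes.

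**Figure D2:**
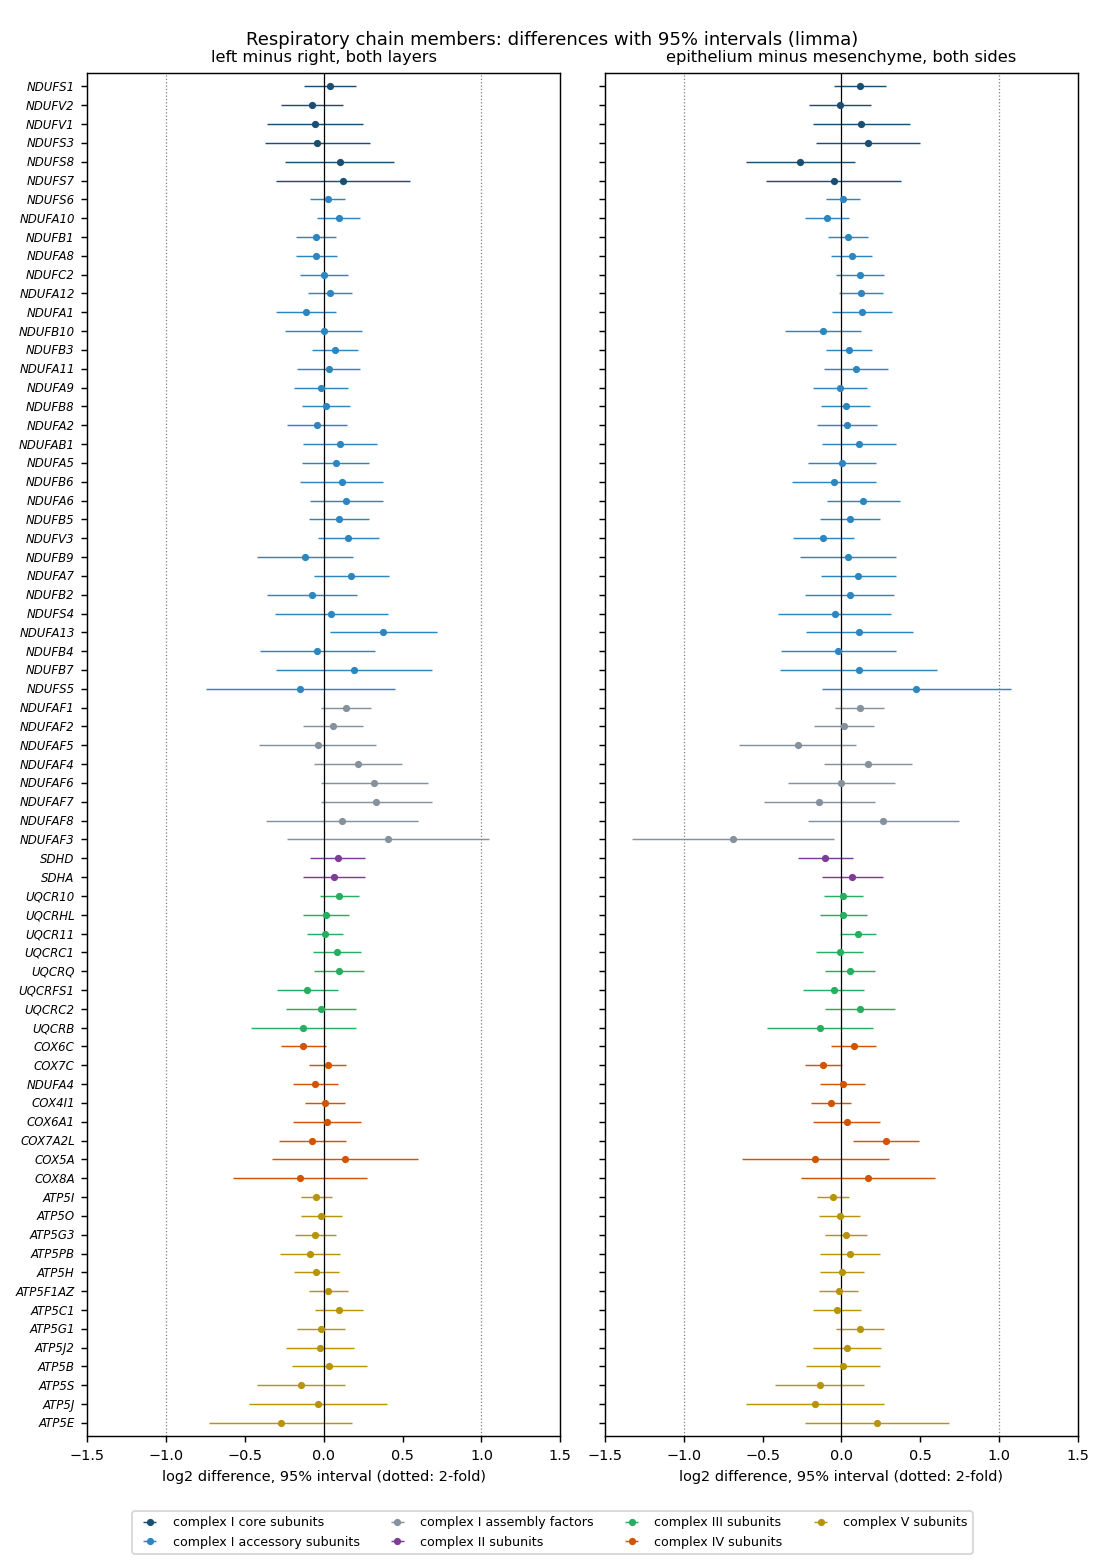
Log2 difference of each tested respiratory chain gene with its 95% interval from limma, left minus right over both layers (left panel) and epithelium minus mesenchyme over both sides (right panel), coloured by complex, with dotted lines at 2-fold. No gene passed after adjustment. The intervals of the bright genes stay inside the dotted lines, while those of NDUFAF3 and NDUFS5 cross one of them. Of all probe sets with a mean signal of at least 1000, 97.9% (left panel) and 98.3% (right panel) also had intervals within 2-fold.

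**Figure D3:**
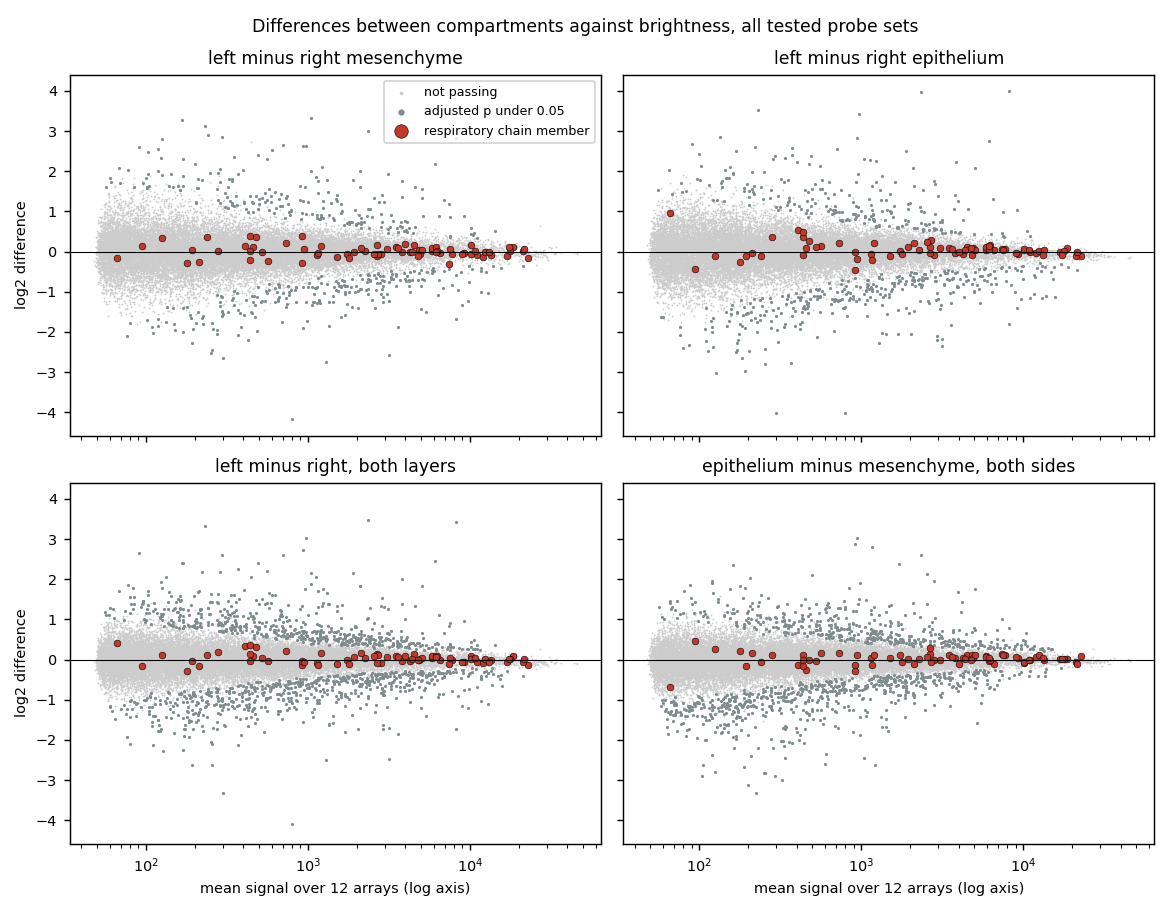
Log2 difference of every tested probe set against its mean signal over the 12 arrays (log axis) in 4 comparisons, with probe sets that passed in dark grey and the 72 respiratory chain genes in red. The red points lie along 0 at high signals, in the same range of brightness where other probe sets passed (4.05% to 9.49% of those with a mean signal of at least 1000 in these comparisons).

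The core subunits of complex I carry the flavin and the iron-sulfur clusters that lead electrons from NADH to ubiquinone. NDUFV1, which binds NADH, had signals of 889.8, 1149 and 746 in left epithelium, 831, 1128 and 1194 in right epithelium, 781, 901 and 1085 in left mesenchyme and 764, 755 and 1139 in right mesenchyme. The 4 compartments overlapped, with differences of 0.07 ± 0.21 between left and right mesenchyme, -0.18 ± 0.21 between left and right epithelium and 0.13 ± 0.15 between the layers. NDUFS1, the largest iron-sulfur subunit, had signals of 5640.2, 4992 and 5367 in left epithelium, 4809.6, 6003 and 4721 in right epithelium, 5200.1, 4608 and 4852 in left mesenchyme and 4892, 4770.2 and 4661 in right mesenchyme, and its differences were 0.03, 0.05 and 0.12 log2 in the same order.

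The proteins of NDUFS7 and NDUFS8 hold clusters on the way to ubiquinone. Of the 6 core genes, NDUFS7 had the largest difference in mesenchyme and in the interaction, and NDUFS8 between the layers. NDUFS7 differed by 0.36 ± 0.28 log2 between left mesenchyme (275 ± 39.4 signal units, SD, n = 3) and right mesenchyme (214 ± 52.8), with an adjusted p of 0.70, and by -0.47 in the interaction (adjusted p = 0.95). NDUFS8 differed by -0.26 ± 0.16 log2 between epithelium and mesenchyme (adjusted p = 0.47), and was below its mesenchymal value in 3 of 3 experiments. Over the 6 genes the medians were 0.05 between left and right mesenchyme, -0.02 between left and right epithelium and 0.05 between the layers.

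The 27 accessory subunits surround the core and are needed for the stability of complex I. Their median differences were 0.00 between left and right mesenchyme, 0.07 between left and right epithelium and 0.03 over both layers. Between the layers the median was 0.05, and 20 of 27 were positive, against 48.2% of all tested probe sets. The layer median was 0.12 in experiment 1, 0.11 in experiment 2 and -0.09 in experiment 3, so its sign was not the same in the 3 experiments.

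NDUFA1, a small subunit of the membrane arm, had signals of 7085, 5832 and 6145 in left mesenchyme against 7797, 6732 and 9109 in right mesenchyme. It was lower on the left in each of the 3 experiments, although the groups overlapped. Its difference of -0.30 ± 0.13 log2 (95% interval -0.57 to -0.03) had the smallest p of the 72 genes in the mesenchyme, which was 0.32 after adjustment. With 1 array or experiment left out the difference ranged from -0.40 to -0.12. In left epithelium NDUFA1 had signals of 9639, 7595 and 6732 against 7551, 8240.5 and 6796 in right epithelium, a difference of 0.07 ± 0.13 (adjusted p = 0.88). The interaction for NDUFA1 was 0.38 log2, with an adjusted p of 0.86.

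NDUFA13, also known as GRIM-19 and described in mammals as a cell death regulator as well as a subunit, had signals of 555, 464 and 531 in left epithelium against 433, 315 and 447 in right epithelium, and of 458, 513 and 458 in left mesenchyme against 327, 307 and 474 in right mesenchyme. The epithelial groups did not overlap, and in the mesenchyme the third right array lay among the left ones. The differences were 0.37 ± 0.23 in epithelium and 0.38 ± 0.23 in mesenchyme. That over both layers was 0.38 ± 0.16 log2 (95% interval 0.04 to 0.71), positive in 3 of 3 experiments, with an adjusted p of 0.24. The second probe set of NDUFA13, with a mean signal of 308, differed by 0.08 log2 over both layers, so that the probe sets did not show the same size of difference.

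NDUFS5, an accessory subunit on the outer face of the membrane arm, was dim. Its signals were 101, 77.6 and 93.2 in left epithelium, 132, 89.1 and 171 in right epithelium, 103, 74.7 and 57.7 in left mesenchyme and 115, 90.1 and 27.8 in right mesenchyme. The third right mesenchymal array was close to its floor of 26.9 units, and the layers differed by 0.48 ± 0.28 log2 (adjusted p = 0.44). NDUFS5 was higher in epithelium in 3 of 3 experiments, but most of the difference lay in experiment 3. With 1 array or experiment left out it ranged from 0.05 to 0.70. In the epithelium its sides differed by -0.43 ± 0.40 and in the interaction by -0.56 ± 0.57 (adjusted p = 0.74 and 0.96).

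The 8 assembly factors are not part of the finished complex I. In human cells they chaperone or modify its subunits, and several are enzymes. The group's median difference between the sides over both layers was 0.18 log2, and 7 of the 8 genes were positive. Over all tested probe sets the median was 0.01, and 51.2% were positive. The group's median was 0.04 in experiment 1, 0.15 in experiment 2 and 0.27 in experiment 3. The median was 0.18 in the mesenchyme and 0.17 in the epithelium. In each layer 6 of the 8 were positive, and none passed. By array, the median deviation of the 8 genes from their own means lay between 0.10 and 0.17 in left epithelium, between -0.15 and 0.06 in right epithelium, between 0.04 and 0.12 in left mesenchyme and between -0.26 and 0.04 in right mesenchyme. The left and right arrays did not overlap within a layer, by a narrow margin in the mesenchyme, and over both layers 1 right epithelial array lay above a left mesenchymal one. Of all tested probe sets taken singly, 17.7% did not overlap between the sides in mesenchyme and 15.7% in epithelium. No such share was computed for medians of 8 genes.

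Among them NDUFAF1, a factor of membrane arm assembly and the brightest of the 8, had signals of 4482, 5128 and 5105 in left epithelium against 4747, 4369 and 4372 in right epithelium, and of 4831, 4547 and 4348 in left mesenchyme against 4336, 3966 and 3986 in right mesenchyme. The mesenchymal groups did not overlap, and the difference over both layers was 0.14 ± 0.07 log2 (adjusted p = 0.37). NDUFAF6 differed by 0.32 ± 0.16 over both layers (adjusted p = 0.34) and by 0.37 ± 0.23 in the mesenchyme (adjusted p = 0.57). NDUFAF4, which acts with NDUFAF3, differed by 0.22 ± 0.13 over both layers and was higher on the left in 3 of 3 experiments (adjusted p = 0.45). Of the other probe sets of NDUFAF4, 2 were tested, with differences over both layers of 0.30 and -0.34 log2.

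NDUFAF7, a methyltransferase that modifies a core subunit, had signals of 508, 495 and 376 in left epithelium against 384, 273 and 289 in right epithelium, which overlapped by 1 array. The difference was 0.52 ± 0.24 log2, higher on the left in 3 of 3 experiments, with an adjusted p of 0.36. With the mean of all probe sets of a gene the epithelial difference was 0.096 (adjusted p = 0.94), and the other probe set of NDUFAF7 was dim, with a mean signal of 27.5. In the mesenchyme the difference of NDUFAF7 was 0.14 ± 0.24 (adjusted p = 0.89), and over both layers 0.33 (adjusted p = 0.34).

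NDUFAF3 had the widest range of the 72 genes and was the dimmest of them. Its signals were 89.7, 56.8 and 60.7 in left epithelium, 49.96, 32.6 and 8.85 in right epithelium, 57.02, 64.1 and 116 in left mesenchyme and 69.9, 109.7 and 81.8 in right mesenchyme. The epithelial groups did not overlap, and the third right epithelial array was below its floor of 28.5 units. The difference between left and right epithelium was 0.96 ± 0.43 log2 (95% interval 0.05 to 1.87, adjusted p = 0.35), that in the mesenchyme -0.15 ± 0.43 (adjusted p = 0.95) and the interaction 1.11 ± 0.61 (adjusted p = 0.90). Between epithelium and mesenchyme it was -0.69 ± 0.30 (adjusted p = 0.25), and epithelium was the higher layer in 1 of 3 experiments.

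NDUFAF5, which hydroxylates the NDUFS7 protein in human cells, had estimates of opposite sign in the layers, and neither passed. Its signals were 479, 666 and 1013 in left epithelium against 1086, 1117 and 715 in right epithelium, and 1191, 1026 and 1173 in left mesenchyme against 929.6, 699.5 and 976 in right mesenchyme. The epithelial groups overlapped and the mesenchymal ones did not. The differences were -0.46 ± 0.25 log2 in epithelium and 0.39 ± 0.25 in mesenchyme. The test of the interaction gave -0.85 ± 0.35 with an adjusted p of 0.81, and its sign was not the same in the 3 experiments. Over the alternative settings the epithelial difference of NDUFAF5 ranged from -0.94 to -0.09 and the mesenchymal one from 0.16 to 0.48. The interaction ranged from -1.39 to -0.25. NDUFAF8, the partner protein of NDUFAF5 in human cells, differed by 0.34 ± 0.32 in the mesenchyme, by 0.27 between the layers and by -0.46 in the interaction (adjusted p = 0.76, 0.63 and 0.96).

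**Figure D4:**
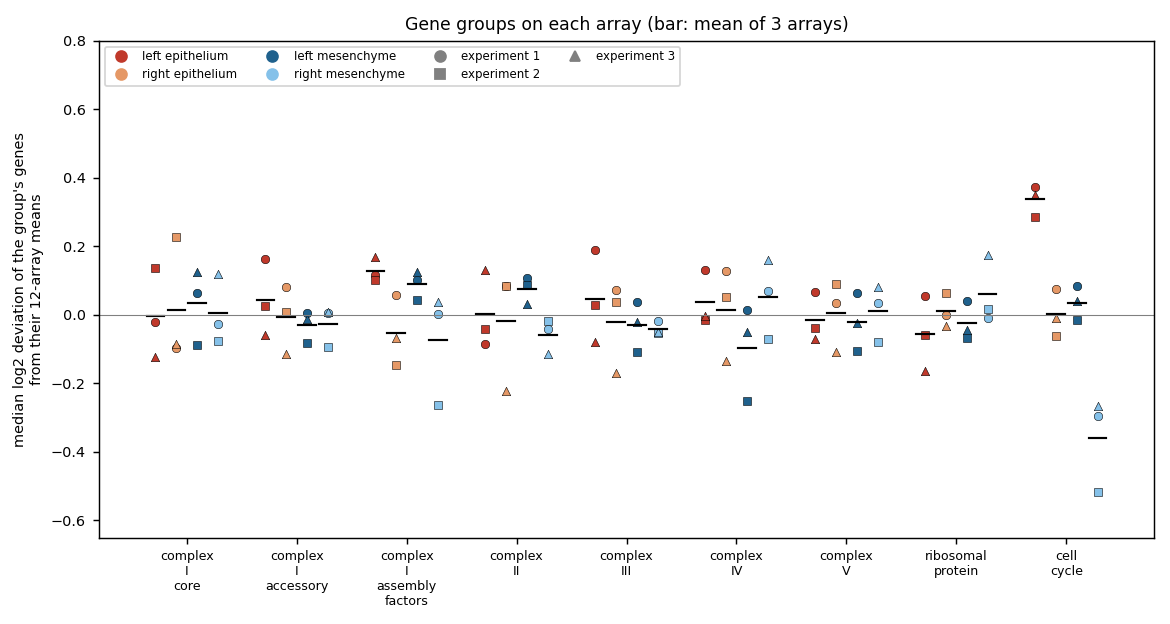
Median log2 deviation of the genes of each group from their own 12-array means, on each array (circle, square and triangle for experiments 1, 2 and 3, bar for the mean of 3 arrays), for the respiratory chain roles and, for scale, cytosolic ribosomal protein genes and cell cycle genes. The medians of the complexes lie between -0.25 and 0.23 on single arrays, the assembly factors lie above 0 on the 6 left arrays and on 3 of the 6 right ones, and the cell cycle genes spread from -0.52 in right mesenchyme to 0.37 in left epithelium.

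Complex II, the succinate dehydrogenase of the tricarboxylic acid cycle, was represented by its flavoprotein subunit SDHA and its membrane anchor SDHD. SDHA had signals of 3594, 3358 and 4385 in left epithelium, 3707, 4013 and 3190.2 in right epithelium, 3748, 3514 and 3573 in left mesenchyme and 3781, 3388 and 3128 in right mesenchyme. Its compartments overlapped, and its differences were 0.08 ± 0.13 in mesenchyme, 0.05 ± 0.13 in epithelium and 0.07 ± 0.09 between the layers. SDHD had 4430.02, 4594 and 4187 in left mesenchyme against 3572, 4123 and 3911 in right mesenchyme. These groups did not overlap, yet the difference of 0.19 ± 0.12 log2 did not pass (adjusted p = 0.58). In epithelium SDHD differed by -0.01 ± 0.12, between the layers by -0.10 and in the interaction by -0.20 log2 (adjusted p = 0.98, 0.61 and 0.95). With the mean of all its probe sets, the adjusted p of SDHD between the layers was 0.0504 by limma. Over the processing alternatives its layer difference reached -0.41 log2.

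Complex III passes electrons from ubiquinol to cytochrome c. The 8 genes had medians of 0.00 between left and right mesenchyme, 0.02 between left and right epithelium and 0.01 between the layers, and the layer median was 0.11 in experiment 1, 0.09 in experiment 2 and -0.11 in experiment 3. UQCRFS1, the Rieske iron-sulfur protein, had signals of 1839, 1716 and 1608 in left epithelium, 2066, 1718 and 1609 in right epithelium, 1837, 1665 and 1657 in left mesenchyme and 2137, 1774 and 1844 in right mesenchyme. It was lower on the left in the mesenchyme in 3 of 3 experiments, while in epithelium the sides were nearly equal in experiments 2 and 3. The difference over both layers was -0.10 ± 0.09 log2 (95% interval -0.30 to 0.09, adjusted p = 0.64), while its second, dimmer probe set had 0.32. UQCRHL, the hinge protein, had signals of 20794, 18217 and 15145 in left epithelium, 17664, 18634 and 16907 in right epithelium, 18736, 16337 and 18254 in left mesenchyme and 17279, 16245 and 19397 in right mesenchyme. Its 4 compartment means were within 1.02-fold of each other, the smallest ratio of the 72 genes, and its side and layer differences were all 0.01 log2 with SEs of 0.07 to 0.10.

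Complex IV is cytochrome c oxidase. Its nuclear subunits surround the mitochondrially encoded core and some exist in tissue-specific forms. Between left and right mesenchyme the 8 tested genes had a median of -0.11 log2, with 7 of 8 negative and none passing. Of all tested probe sets, 50.3% were positive there. The medians of the 8 genes were -0.01, -0.11 and -0.17 in experiments 1, 2 and 3. The median was -0.01 in epithelium and 0.02 between the layers. COX4I1, the ubiquitous form of subunit 4, had signals of 10757, 10420.1 and 9229 in left epithelium, 9974, 10193 and 8785 in right epithelium, 10409, 10263 and 9759.7 in left mesenchyme and 10757, 9999.7 and 10876 in right mesenchyme, with differences of -0.06 in mesenchyme, 0.07 in epithelium and -0.07 between the layers (SE 0.06 to 0.08). COX6A1, the non-muscle form of subunit 6A in mammals, differed by -0.05 ± 0.14, 0.10 ± 0.14 and 0.03 ± 0.10, and NDUFA4 by -0.11 ± 0.10, -0.00 ± 0.10 and 0.01 ± 0.07, in the same order. The smallest adjusted p of COX4I1, COX6A1 and NDUFA4 in these comparisons was 0.65, for COX4I1 between the layers.

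COX7A2L had signals of 3506, 2406 and 2797 in left epithelium and 3235, 3262 and 2360.4 in right epithelium, against 2604, 2079.6 and 2177 in left mesenchyme and 2499.6, 2530.2 and 2403 in right mesenchyme. Epithelium was higher in 3 of 3 experiments, although 2 of the 6 epithelial arrays lay within the mesenchymal range. The layer difference of 0.28 ± 0.10 log2 (95% interval 0.07 to 0.50) had the smallest p of the 72 genes in that comparison and was the largest among the 52 bright genes, and its adjusted p was 0.13. The sides differed by -0.12 ± 0.14 in mesenchyme and -0.03 ± 0.14 in epithelium.

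COX5A, a subunit on the matrix side, was variable between the arrays of a compartment. Its signals were 383, 613 and 452 in left epithelium, 529, 315 and 223 in right epithelium, 395, 333 and 545 in left mesenchyme and 523, 361 and 603 in right mesenchyme. The differences were 0.48 ± 0.31 log2 between left and right epithelium, -0.21 ± 0.31 in mesenchyme and 0.70 ± 0.44 in the interaction (adjusted p = 0.58, 0.87 and 0.91). The second probe set of COX5A, with a mean signal of 206, gave 0.58, 0.02 and 0.56 log2 in the same order.

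Complex V turns the proton gradient into ATP through a rotating c ring and a catalytic head. Its 13 tested genes had medians of -0.01 between left and right mesenchyme, -0.04 between left and right epithelium and 0.00 between the layers. Left minus right over both layers, their median was -0.04 and 10 of 13 were negative, where 51.2% of all tested probe sets were positive. That median was 0.03 in experiment 1, -0.05 in experiment 2 and -0.07 in experiment 3, so its sign was not the same in the 3 experiments. The layer median was 0.02 in experiment 1, 0.10 in experiment 2 and -0.13 in experiment 3. ATP5F1AZ, the Z chromosome gene of the catalytic head's alpha subunit, had signals of 11479, 10404 and 10760.3 in left epithelium, 10968, 11030.4 and 9717 in right epithelium, 11314, 10116 and 11298 in left mesenchyme and 11333, 10015 and 11027 in right mesenchyme. Its 12 arrays spanned 1.18-fold, the narrowest range of the 72 genes, and its left-right differences were 0.02 ± 0.08 in mesenchyme and 0.04 ± 0.08 in epithelium. ATP5B, the catalytic beta subunit, had signals of 2345, 2539 and 2031 in left epithelium, 2121, 2458 and 2082 in right epithelium, 2511, 2144 and 2133 in left mesenchyme and 1908, 2066 and 2791 in right mesenchyme, and its differences were 0.02, 0.05 and, between the layers, 0.01 log2.

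Of the c ring genes, ATP5G1 had signals of 5381, 4718 and 4649.6 in left epithelium, 4865, 5144 and 5531 in right epithelium, 4869, 4537 and 4694 in left mesenchyme and 4532, 4650.3 and 4564 in right mesenchyme. Its differences were 0.04 ± 0.10 in mesenchyme, -0.08 ± 0.10 in epithelium and 0.12 ± 0.07 between the layers. ATP5G3 had -0.01 ± 0.09, -0.10 ± 0.09 and 0.03 ± 0.06 in the same order. These genes make the same mature protein in mammals, and neither differed past the threshold. ATP5E, the small epsilon subunit, had 179, 149.8 and 187 in left epithelium against 245, 199.99 and 188 in right epithelium, and 194, 143 and 106 in left mesenchyme against 269, 114 and 181 in right mesenchyme. The epithelial groups were separated by a narrow margin, and the difference over both layers was -0.27 ± 0.22 log2 (adjusted p = 0.59).

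**Figure D5:**
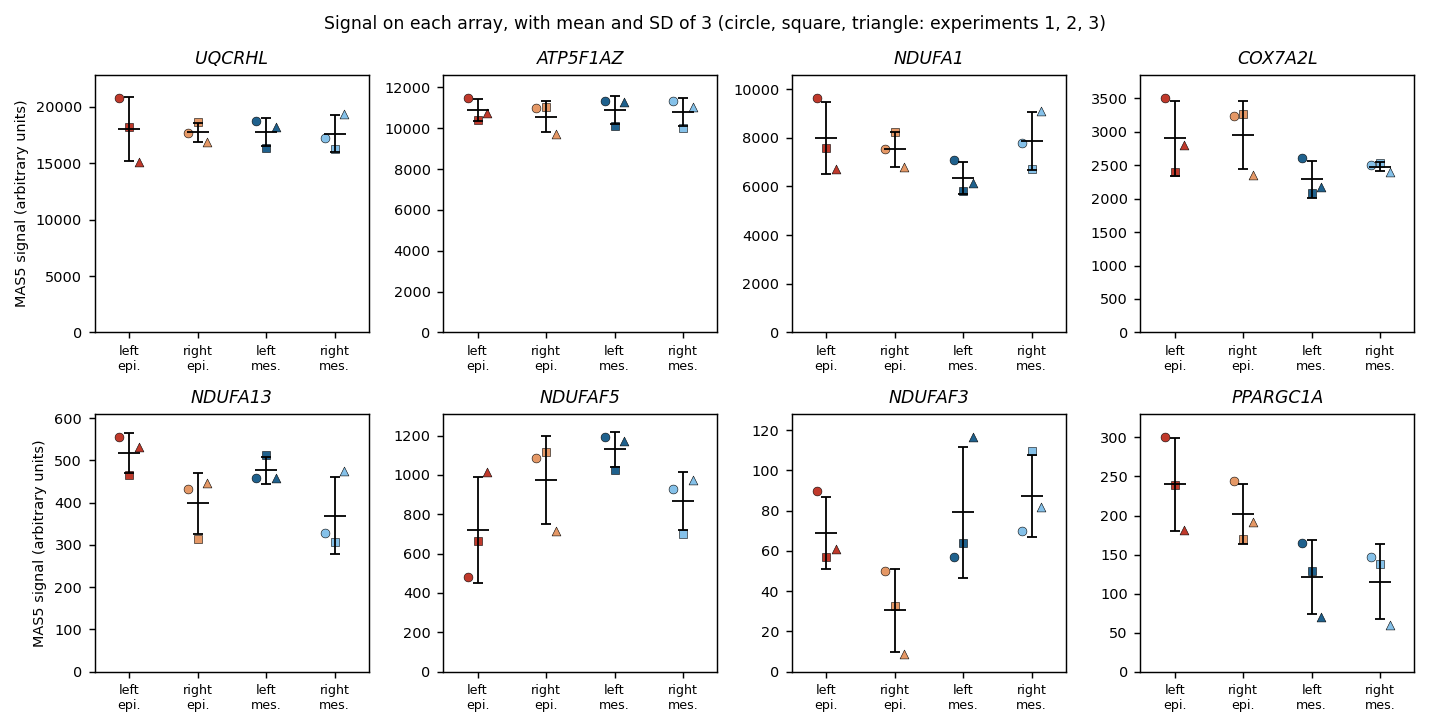
MAS5 signal on each array of 7 respiratory chain genes and of PPARGC1A (symbols for experiments 1 to 3, bars for the mean and SD of 3 arrays), with axes from 0. UQCRHL and ATP5F1AZ are level across the compartments. NDUFA1, COX7A2L, NDUFA13, NDUFAF5 and NDUFAF3 are those with an unadjusted p under 0.05 in a comparison (NDUFAF7, not drawn, is the other). The drawn probe set of PPARGC1A is higher in epithelium, a call lost in 17 of 27 alternatives.

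The overall level of the members varied between the arrays of a compartment. The median deviation of the 72 genes from their own means was highest on the first left epithelial array (0.12 log2) and lowest on the third right epithelial array (-0.12). Their summed signal lay between 368912 on the third right epithelial array and 423604 on the first left epithelial array. The median difference between epithelium and mesenchyme was 0.04 in experiment 1, 0.10 in experiment 2 and -0.10 in experiment 3. That between left and right epithelium was 0.07, -0.02 and 0.09. In experiment 1 the summed blood marker signal was 63625 in left and 72041 in right epithelium, in experiment 2 it was 23956 in left and 71925 in right, and in experiment 3 it was 19313 in left and 68186 in right. Whether blood or endothelial RNA contributes to any single gene's difference was not tested.

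Of the probe sets not used, 59 belonged to the same genes and 42 of them, for 29 genes, were tested. None passed in any of the 5 comparisons by limma, and 2 to 4 of the 42 in a comparison had an unadjusted p under 0.05, where 5.84% to 16.8% of all tested probe sets did.

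Other genes of mitochondrial function were read from lists of pathway genes. None passed among 29 other assembly factors of the respiratory complexes, 15 genes of mitochondrial protein import, 11 of electron carriers and nucleotide exchange, such as CYCS for cytochrome c, and 8 of antioxidant defence, by limma in any comparison. At an unadjusted p under 0.05 there were 1 to 4, 0 to 4, 0 to 2 and 0 to 1 genes of these lists in a comparison, where the share over all tested probe sets was 5.84% to 16.8%. Between left and right over both layers, 5.28% of all tested probe sets passed. Of 15 tested genes of the tricarboxylic acid cycle, 1 was higher on the left in that comparison, and none was lower. It was SUCLG2, which encodes a subunit of succinyl-CoA ligase, with signals of 6862, 7852 and 6762 in left epithelium against 6036, 6499 and 4735 in right epithelium, and 7193, 7703 and 8511 in left mesenchyme against 6398, 6418 and 6317 in right mesenchyme. SUCLG2 rose by 0.30 ± 0.08 log2 (adjusted p = 0.03), and the call was lost in 16 of 28 alternative settings, among them the omission of any 1 experiment and of any 1 of 6 arrays (adjusted p up to 0.45 over the alternatives).

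Of 18 tested regulators of mitochondrial biogenesis, 1 was higher in epithelium, and none passed between the sides. Over all tested probe sets, 4.79% passed between the layers. PPARGC1A, the coactivator that raises transcription of nuclear mitochondrial genes, had signals of 300.2, 239.6 and 181 in left epithelium and 244, 169.6 and 191 in right epithelium, against 165, 128 and 70.6 in left mesenchyme and 147, 138 and 59.7 in right mesenchyme. The 6 epithelial arrays were above the 6 mesenchymal ones, and the layer difference was 0.87 ± 0.22 log2 (adjusted p = 0.027). The call was lost in 17 of 27 alternatives, including the fit without the experiment as a block (adjusted p = 0.060) and the omission of any 1 experiment (0.10 to 0.21). With the mean of all probe sets of PPARGC1A the difference was 0.50 log2 (adjusted p = 0.25 by limma). The members' median layer difference, for comparison, was 0.03 log2. TFAM, the mitochondrial transcription factor, differed by 0.03 ± 0.05 and NRF1, a regulator of respiratory genes in mammals, by 0.22 ± 0.29 between the layers (adjusted p = 0.87 and 0.79).

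Among 21 tested genes of glycolysis and the hypoxia response, 4 were higher on the left over both layers and none was lower, and between the layers 1 was higher and 1 lower in epithelium. Of all tested probe sets, 5.28% passed between the sides over both layers and 4.79% between the layers. EPAS1, which encodes the hypoxia-inducible factor 2 alpha and is strongly expressed in endothelium, had 821, 1182 and 1154 in left mesenchyme against 303, 207 and 227 in right mesenchyme, and rose there by 2.03 ± 0.29 log2 (adjusted p = 0.00058, or 0.057 without moderated variances). The endothelial markers were higher on the same side, as given above, and their part in it was not tested. CA9, a carbonic anhydrase, had 876, 782 and 706 in left epithelium against 441, 294 and 320.1 in right epithelium, and rose by 1.14 ± 0.20 (adjusted p = 0.0027). Over both layers EPAS1, CA9, PFKP, a phosphofructokinase, and VEGFA, the vascular growth factor, rose on the left by 1.08, 0.87, 0.49 and 0.52 log2. PFKP also passed in epithelium alone, by 0.68 ± 0.15 (adjusted p = 0.016). Between the layers EPAS1 was lower in epithelium, with a difference of -1.70 ± 0.20 (adjusted p = 4.7e-05), and SLC16A1, a transporter of lactate and pyruvate, was higher in epithelium, with 0.51 ± 0.10 (adjusted p = 0.0035). The epithelial call of CA9 was lost without experiment 2 (adjusted p = 0.12). Over both layers the calls of EPAS1 and PFKP were lost without experiment 2 or without experiment 3, and that of VEGFA without experiment 1 or 2 and without any 1 of 8 arrays. Other settings ended the call of PFKP over both layers 4 times and that of VEGFA 2 times, and with the mean of all probe sets of a gene PFKP differed by 0.11 log2 (adjusted p = 0.77). The epithelial call of PFKP was lost in 10 of 29 alternatives, and that of SLC16A1 between the layers without experiment 2 (adjusted p = 0.053) and with the mean of all probe sets (0.22). LDHA and LDHB, the lactate dehydrogenase subunits, differed by 0.00 ± 0.11 and -0.05 ± 0.06 between the sides. The same arrays also held 27 tested cell cycle genes, of which 17 were higher on the left over both layers and 12 higher in epithelium, none lower, with median differences of 0.36 and 0.32 log2. The shares of all tested probe sets that passed in these comparisons were 5.28% and 4.79%.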

How the data were processed

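Gene expression was measured on 12 one-colour Affymetrix chicken arrays, 3 for each of 4 compartments. The authors deposited 1 table of linear intensity values, MAS5 signals made in GCOS per the submitters' processing notes (no version named), and the values show that each array had been scaled to a 2% trimmed mean of 500.1. Sections were cut by laser, and the RNA was amplified with a whole-transcript kit and labelled from 5 ng, per the labels' protocols. Array medians were 84.2 to 98.6 and 71.6% to 80.7% of the probe sets lay above the floor. The number of arrays limits the precision.

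Symbols came from the platform annotation of 2016. Of the 74 genes, 73 had their Entrez identifier in the RefSeq chicken table, through which 0 symbols changed. One further probe set that met the symbol rule carried several symbols and was left out.

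The scaling was kept, 16 was added and log2 taken. Probe sets above the 40th percentile of mean log2 signal (47.4 units), 23063 in all, were fitted with limma 3.58.1 in R 4.3.3, with compartment, the experiment as a fixed block and an intensity trend in the variance prior (degrees of freedom, 6 residual and 10.6 prior). One estimate of the spread served all compartments. The two-sided p-values were adjusted by Benjamini-Hochberg over all 23063 within a comparison, and the limma script was tested on simulated data. Replicate numbers were taken as the 3 experiments, because the series text has every experiment supplying the 4 compartments. Deviations of same-numbered arrays from their compartment means correlated at -0.063 to 0.105 (mean 0.021 over 18 pairs). For different numbers in different compartments the mean was -0.010. Centring on the compartment means largely fixes this second mean from the first, so the comparison cannot check the pairing.

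The members, gene lists, tests and named genes were chosen with earlier results of these data known, and the lists were written from general knowledge. In each comparison the text names the 6 members with the largest difference, and in addition the isoform pairs, the complex II subunits, NDUFS1, NDUFV1, UQCRFS1, COX5A and ATP5B, the extremes of signal, and listed pathway genes that passed. NDUFAF1, UQCRHL, TFAM, NRF1, CYCS, LDHA, LDHB, NDUFB6, UQCR10 and NDUFB7 were named after their values were seen. The alternatives were other pseudocounts, filters, scalings and variance models, no block, the mean of all probe sets of a gene, and the omission of single arrays or experiments. The joint omission of the third right epithelial and right mesenchymal arrays and the fit without moderated variances were added after the data were seen.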

Additional observations from a re-analysis of the deposited data

How the results depend on the processing

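Under 30 alternative settings, 142 recounts over the 5 comparisons each found 0 of the tested respiratory chain genes past the threshold, including the fits without the experiment as a block. The smallest adjusted p of a member in any of them was 0.154 (NDUFA1, left against right mesenchyme, only the mesenchymal arrays), 0.0542 (NDUFB6, left against right epithelium, without the first right epithelial array), 0.0565 (UQCR10, both layers, quantile normalization), 0.0504 (SDHD, epithelium against mesenchyme, mean of all probe sets) and 0.416 (NDUFAF5, interaction, without the third right epithelial array). Over all probe sets the calls ranged from 98 to 763 between left and right mesenchyme, from 164 to 581 between left and right epithelium, from 483 to 1315 over both layers, from 419 to 1215 between the layers and from 0 to 15 for the interaction. The lowest counts came without moderated variances (both single-layer comparisons), without experiment 2 (both layers, and between the layers) and, for the interaction, without an intensity trend, without moderated variances or without experiment 2.

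The members' median difference between left and right epithelium, 0.0406, was -0.0282 without the third right epithelial and right mesenchymal arrays, and ranged from -0.0275 to 0.1092 with 1 array or experiment left out. That over both layers, 0.0174, was 0.0340 after quantile normalization, 0.0293 after median centring, 0.0292 with the mean of all probe sets, and -0.0028 to 0.0450 with 1 array or experiment left out. In this balanced layout the replicate block can change the SEs but not the differences. The medians without it were therefore the same by design (0.0012 and 0.0406 between the sides of mesenchyme and epithelium, 0.0280 between the layers). The pairing changed no call of a member. Without the block PPARGC1A lost its call (adjusted p = 0.060).

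Some uncalled single-gene differences changed sign. The list below leaves out sign changes where the difference was below its SE in both the main fit and the alternative. Such changes occurred too, with 1 array or experiment left out. COX5A ranged from -0.42 to 0.16 between the layers, and NDUFV1 from -0.36 to 0.10 between left and right epithelium. With the mean of all probe sets ATP5G1 was -0.0182 between the layers and 0.4229 over both layers, and UQCRFS1 0.0702 in mesenchyme and 0.1090 over both layers. With 1 array or experiment left out, the difference between left and right epithelium ranged from -0.1693 to 0.3015 for COX6A1, -0.1504 to 0.2062 for SDHA, -0.1606 to 0.1795 for COX7A2L and -0.1012 to 0.1089 for NDUFA4, that of NDUFA4 in mesenchyme from -0.1660 to 0.0015 and the interaction of SDHD from -0.3762 to 0.0054. The cause of these shifts was not tested. Brightness limits the dim members, whose intervals are the widest.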
